A study of Mus musculus with 2 samples.

Results

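Among microglia of wildtype mice that had received lipopolysaccharide (LPS, a component of bacterial membranes) 24 h earlier, a set of cells carried many copies of Saa3, the transcript of serum amyloid A3, a secreted protein of the acute-phase response. A cell was counted as Saa3-high if it held at least 5 unique molecular identifiers (UMIs, each marking 1 captured transcript molecule) of Saa3. By this rule 240 of the 1427 cells of the wildtype library were Saa3-high, which was 16.8% (95% exact interval 14.9 to 18.9). They were set against the 844 cells of the same library with 0 Saa3 UMIs (Saa3-0 cells, 59.1%). The other 343 cells (24.0%) had 1 to 4 Saa3 UMIs. In the library of PARK7/DJ-1 knockout mice 0 of 320 cells were Saa3-high, which allows a share of up to 0.938% (3 cells of 320, the limit set for a count of 0). Both libraries together held 1747 cells. The cells were chosen by their raw Saa3 counts, so the level of Saa3 is given only as a description, and the gene was left out of every other readout.

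The 2 groups of the series were PARK7/DJ-1 knock-out (KO LPS) and PARK7/DJ-1 wild type (WT LPS). The mice were littermates from a line backcrossed to C57BL/6NCrl, aged 3 to 4 months, and the knockout came from a gene-trap insertion in Park7, which inactivates the gene in all cells. All received 4 µg LPS per g body weight into the peritoneum, and no uninjected library was used here. Microglia were sorted from the brain by their CD11b+CD45int profile. Drop-seq then captured their transcripts, as droplets bring single cells together with barcoded beads. Each genotype gave 1 library made from 2 pooled mice, 1 female and 1 male. There was therefore no replicate library, no test was made and no p-value is given. Genotype and library cannot be told apart, and the 95% intervals cover counting error only.

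Acute-phase proteins are secreted when bacterial products or inflammatory cytokines are sensed. The liver makes most of them, and macrophages, microglia among them, make some locally. Serum amyloid A proteins bind lipids and act on immune cells. Lipocalin 2 (Lcn2) binds bacterial iron carriers, haptoglobin (Hp) binds free haemoglobin, and ceruloplasmin (Cp) is a copper-binding ferroxidase. The transcription factors NF-κB, STAT3 and the C/EBP family are known to drive such genes.

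The 250 bases before the start site of 4 genes that the results turn on are shown because acute-phase promoters are known for C/EBP and NF-κB sites (RefSeq, GRCm38.p6, 5′ to 3′ on the strand of the gene). Capitals mark matches to the C/EBP-type letters TTNNGNAA on either strand, with overlapping matches run together.
Saa3, chr7:46715677-46715926, minus strand: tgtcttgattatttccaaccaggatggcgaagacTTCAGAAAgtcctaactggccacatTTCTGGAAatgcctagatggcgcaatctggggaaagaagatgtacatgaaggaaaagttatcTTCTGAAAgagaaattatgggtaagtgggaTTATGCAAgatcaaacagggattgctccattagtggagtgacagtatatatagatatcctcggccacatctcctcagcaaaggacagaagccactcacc
Lcn2, chr2:32387740-32387989, minus strand: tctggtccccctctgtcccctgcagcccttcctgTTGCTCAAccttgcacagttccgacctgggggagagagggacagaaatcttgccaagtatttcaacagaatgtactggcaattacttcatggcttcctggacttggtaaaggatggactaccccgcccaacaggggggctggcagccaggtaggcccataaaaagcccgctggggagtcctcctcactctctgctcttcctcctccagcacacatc
Marco, chr1:120505025-120505274, minus strand: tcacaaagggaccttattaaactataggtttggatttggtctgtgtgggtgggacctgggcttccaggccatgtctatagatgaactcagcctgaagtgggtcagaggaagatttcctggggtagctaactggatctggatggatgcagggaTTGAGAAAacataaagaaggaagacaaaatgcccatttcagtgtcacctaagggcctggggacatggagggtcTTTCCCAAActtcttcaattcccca
Ccl3, chr11:83649379-83649628, minus strand: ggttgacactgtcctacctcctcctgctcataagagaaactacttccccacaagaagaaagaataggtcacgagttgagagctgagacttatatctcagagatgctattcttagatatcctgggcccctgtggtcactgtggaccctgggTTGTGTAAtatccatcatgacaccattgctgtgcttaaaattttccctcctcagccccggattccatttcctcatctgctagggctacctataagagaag

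The Saa3 window held 4 such matches, the Marco window 3, of which 2 overlapped each other, and those of Lcn2 and Ccl3 held 1 each. At least 1 match stood in 36.8% of 32817 promoters, taken as the same 250 bases. The κB-type letters, GGG and CC with any 5 bases between, were found once in the Lcn2 window, 3 times in that of Marco, with overlap among themselves and with the C/EBP-type letters, and 0 times in those of Saa3 and Ccl3. They stood in 45.8% of all promoters. The STAT-type letters TTCNNNGAA were in none of the 4 windows and in 7.01% of all promoters. The window of Cxcl13, whose direction varied with the cells compared, held 2 C/EBP-type, 1 κB-type and 0 STAT-type matches. A match is a string of letters and not a shown binding site.

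The WT LPS library held 3063795 UMIs and KO LPS 684738, each over 9999 barcodes, of which those with at least 500 UMIs and 100 genes were taken as cells. The libraries shared 11 barcodes, 0 of them cells. Of the WT LPS cells, 55 pairs had barcodes that differed at 1 base, and 18 of these pairs were Saa3-high in both members. A bead counted under more than 1 barcode was not tested for. Without the shallower barcode of each pair, 222 Saa3-high cells remained (16.2% of the cells). Park7 had 1 UMI in the KO LPS cells. In the wildtype cells, cut to equal depth, it was at 145 CPM in Saa3-high and 128 CPM in Saa3-0 cells.

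Saa3-high cells were deeper than the rest. They held 520 to 27757 UMIs with a median of 1423, against a median of 969.5 in Saa3-0 cells and 1100 in cells with 1 to 4 Saa3 UMIs. A fixed number of Saa3 UMIs is reached more easily in a deep cell, so this was partly set by the rule. For all other genes every cell was therefore thinned at random to 500 UMIs. Levels are given as the UMIs of a gene per 1e6 of the UMIs kept, Saa3 left out (CPM). At this depth the cells showed medians of 375, 376 and 377 genes in the Saa3-high, Saa3-0 and 1 to 4 groups, so the number of genes per cell was alike.

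The range of Saa3 was wide within the Saa3-high cells. The lowest had 5 UMIs, the median cell 17 and the highest 208. As a share of a cell's UMIs this was 0.125% at the lowest, 1.29% at the median and 13.7% at the highest, and 147 cells held at least 1%. The Saa3-high cells carried 7815 of the 8367 Saa3 UMIs of all wildtype cells (93.4%), and the 10 highest cells carried 21.4% of those 7815. Free RNA is also caught in droplets. In barcodes with at most 100 UMIs, Saa3 made up 1318 per 1e6 UMIs. If all UMIs of a cell were free RNA, this would give 1.87 Saa3 UMIs at the median Saa3-high depth. That is an upper figure, since it would give 1.28 UMIs at the median Saa3-0 depth, and 844 of the 1427 cells held 0. Of the 240 cells, 39 held less than 4 times this upper figure at their own depth. For the cells with 1 to 4 Saa3 UMIs it was 1.45 UMIs at their median depth, and they are not read as expressing Saa3.

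**Figure D1:**
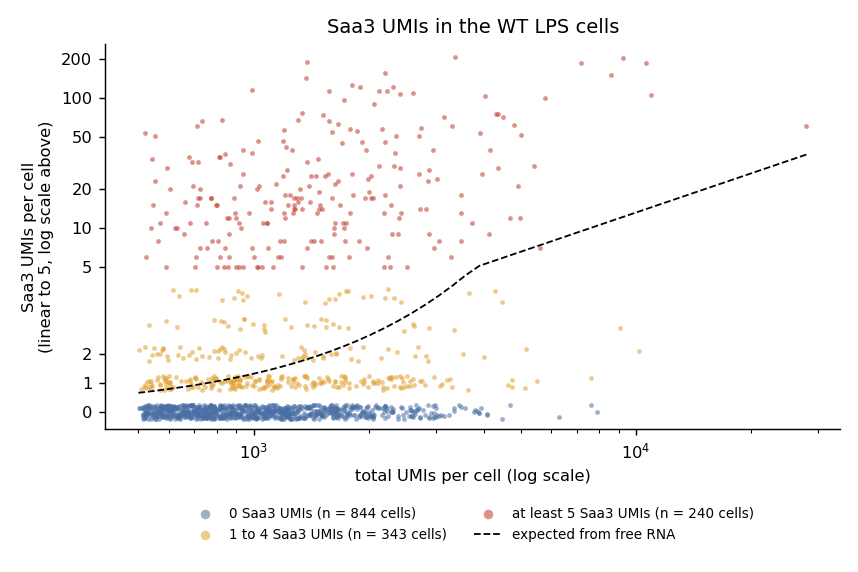
Each point is 1 wildtype cell, with its total UMIs on the x axis (log scale) and its Saa3 UMIs on the y axis (linear to 5, log scale above, points under 5 spread slightly for sight). The Saa3-high cells (red) lie at 5 to 208 Saa3 UMIs at all depths. The dashed line gives the Saa3 UMIs expected if all UMIs of a cell were free RNA.

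The closest relatives of Saa3 were scarce. Saa1 had 20 UMIs and Saa2 12 UMIs in all wildtype cells, and all of them were in Saa3-high cells. The Saa1 UMIs were spread over 19 cells with at most 2 each. These genes share sequence with Saa3, so single reads may be counted for the wrong member of the family, and their presence is uncertain. In KO LPS cells Saa1, Saa2 and Saa3 were all at 0 UMIs.

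Of the 4 other genes given as markers of these cells, Lcn2, Marco and Hp were higher in Saa3-high than in Saa3-0 cells, and Cxcl13 had no stable direction. Marco encodes a scavenger receptor that binds bacteria and particles. It stood at 1377 CPM in Saa3-high cells (1173 to 1607) and at 152 CPM in Saa3-0 cells (117 to 194), a ratio of 9.08 (6.76 to 12.3) and the highest of all genes compared. Marco was seen in 15.8% of Saa3-high and 4.03% of Saa3-0 cells at 500 UMIs, and in 24.6% and 6.40% without thinning. Free RNA of the library held Marco at 225 CPM, so the Saa3-0 level was not above that background. The Marco signal was uneven among the Saa3-high cells. Before thinning, 59 of the 240 cells held its 566 UMIs, and 3 cells held 32.5% of them.

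Lcn2 stood at 1054 CPM in Saa3-high and 256 CPM in Saa3-0 cells, a ratio of 4.12 (3.16 to 5.38), with 184 CPM in free RNA. It was seen in 23.3% and 7.23% of the cells at 500 UMIs and in 41.7% and 14.6% without thinning. Its UMIs were less concentrated than those of Marco, with 19.2% in the top 3 cells. Hp had only 16 UMIs in Saa3-high and 8 in Saa3-0 cells, too few for the minimum of 50 UMIs over all wildtype cells that a gene needed to be compared. Its levels were 136 and 19 CPM, a ratio of 7.18 (2.90 to 19.4). A single cell of 5 to 6 Saa3 UMIs, at the lower limit of the group, held 6 of the 16 UMIs, and without it the log2 ratio was 2.15 in place of 2.80. Without thinning Hp had 37 and 20 UMIs, a ratio of 3.99 (2.26 to 7.25), and 20 of the 240 Saa3-high cells had at least 1.

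Cxcl13, a chemokine that attracts B cells, was seen in few cells, and its direction varied with the cells compared. It had 4 UMIs in Saa3-high and 29 in Saa3-0 cells, at 34.0 and 68.7 CPM. Before thinning it had 14 UMIs in 6 Saa3-high cells and 83 UMIs in 8 Saa3-0 cells, a ratio of 0.36 (0.19 to 0.65, counting error only). A single Saa3-0 cell held 51 of these 83 UMIs. As a share of cells it was 2.50% against 0.948%, so the order of shares and the order of levels differed. Reference cells paired by depth had 0 Cxcl13 UMIs against 4, and the female had 1 UMI in Saa3-high and 2 in Saa3-0 cells (18.2 and 12.7 CPM).

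The markers were rarely seen together. At 500 UMIs, 158 of the 240 Saa3-high cells (65.8%) showed none of Lcn2, Hp, Marco and Cxcl13, 59 showed 1, 22 showed 2 and 1 showed 3. Without thinning, 108 cells (45.0%) showed none. Lcn2 and Marco were seen in the same cell in 16 Saa3-high cells (6.67%) and in 3 Saa3-0 cells (0.355%). Inside the Saa3-high group, the 38 cells with a Marco UMI had Lcn2 at 2223 CPM and the 202 others at 837 CPM, a ratio of 2.66 (1.78 to 3.91). Of the acute-phase genes among these markers, Lcn2 and, with few UMIs, Hp were higher over the group as a whole, while many single cells showed Saa3 alone at this depth.

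Over all genes, 2938 reached the minimum of 50 UMIs. Of these 50 were at least 2-fold higher in Saa3-high cells (1.7%) and 87 at least 2-fold lower (2.96%). The median log2 ratio was 0.02 with an SD of 0.49, so most genes were at about the same level in both groups. Most genes past 2-fold had few UMIs, with a median of 70 over all wildtype cells, and depended on the random draw. A second draw gave 62 and 74 genes, of which only 20 and 21 were among the first 50 and 87. Without thinning, only 7 and 3 were. The genes that were at least 2-fold higher under both draws, with Saa3 removed before thinning, at 1000 UMIs per cell and without thinning were counted after the values were seen. They numbered 7, namely Marco, Ccl3, Lcn2, Cp, Lyz2, Ccl5 and Ccl4. No gene (0) was at least 2-fold lower under all 5 settings.

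**Figure D2:**
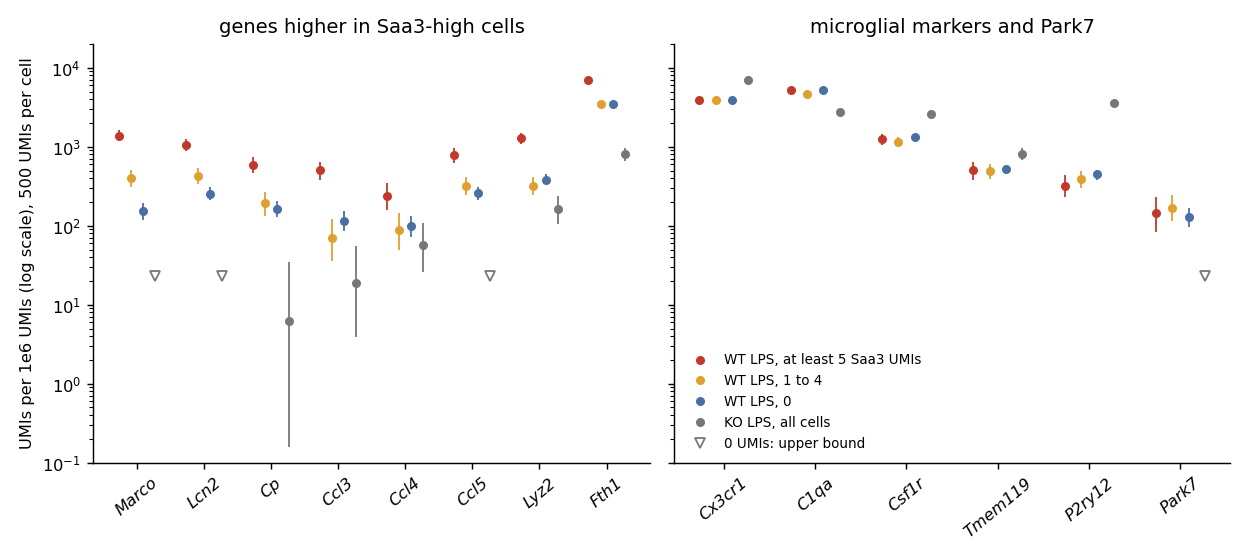
Levels in UMIs per 1e6 UMIs (log scale, cells at 500 UMIs, Saa3 left out) with 95% exact Poisson intervals, for the Saa3-high, 1 to 4 and Saa3-0 cells of WT LPS and for all KO LPS cells. The Saa3-high points stand above the Saa3-0 points for the 8 genes on the left and beside them for the microglial markers on the right, and open triangles give the upper bound where KO LPS had 0 UMIs.

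Among acute-phase genes, 14 of the 20 listed were in the tables and 2 had enough UMIs, Lcn2 and Cp, both over 2-fold higher, beside 1.7% of all genes. Cp stood at 595 CPM in Saa3-high and 164 CPM in Saa3-0 cells, a ratio of 3.64 (2.57 to 5.15). It was seen in 35.4% of Saa3-high and 11.4% of Saa3-0 cells without thinning. Free RNA held Cp at 241 CPM, above the Saa3-0 level. Summed without Saa3, the list stood at 1896 CPM (1655 to 2162) against 472 CPM (408 to 542), a ratio of 4.02 (3.31 to 4.89). Of the 223 UMIs of this sum in Saa3-high cells, Lcn2 held 124, Cp 70 and Hp 16. In the thinned counts 8 genes of the list had 0 UMIs in Saa3-high cells. The sum therefore describes a few genes and is not read as a rise of the whole list. Since Lcn2 and Hp were given as markers of these cells beforehand, the count and the sum are not independent of that choice. The median log2 ratio of the 2 genes with enough UMIs was 1.95, beside 0.02 over all genes.

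The chemokines divided. Ccl3, Ccl4 and Ccl5, which attract monocytes and lymphocytes, were over 2-fold higher, 3 of the 6 chemokines with enough UMIs, beside 1.7% of all genes. Ccl5 was at 782 and 258 CPM (ratio 3.03, 2.27 to 4.03), Ccl3 at 502 and 116 CPM (4.32, 2.91 to 6.44) and Ccl4 at 238 and 99.5 CPM (2.39, 1.43 to 3.95). Ccl3 and Ccl4 were held by few cells. Before thinning, 3 cells carried 55.4% of the Ccl3 UMIs of the Saa3-high group and 57.0% of its Ccl4 UMIs. Without its highest cell the log2 ratio of Ccl3 was 1.63 in place of 2.11. The same 16 cells with a Ccl3 UMI at 500 UMIs had Ccl4 at 2084 CPM, against 109 CPM in the other 224. Ccl12, a ligand of the monocyte receptor CCR2 and the most abundant chemokine here, was at 1769 CPM in Saa3-high and 2009 CPM in Saa3-0 cells (ratio 0.88, 0.75 to 1.03). Ccl2, another CCR2 ligand, was at 349 and 329 CPM.

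Cytokine transcripts were few. Of the 5 cytokines and decoy receptors with enough UMIs, 0 were over 2-fold higher and 1 was over 2-fold lower, Il1r2, the decoy receptor of interleukin-1, at 145 and 306 CPM (ratio 0.47, 0.27 to 0.79). With 1.7% and 2.96% of all genes past 2-fold, a count of 0 or 1 in a list of this size is near the background. Before thinning the Il1r2 ratio was closer to 1, at 220 and 294 CPM. Il1b (119 and 192 CPM) and Tnf (59.5 and 107 CPM) had intervals of the ratio that included 1 at 500 UMIs. Without thinning Il1b was at 96.0 and 171 CPM, a ratio of 0.56 (0.39 to 0.78), and Tnf at 89.6 and 92.1 CPM. The summed list was at 680 CPM against 1052 CPM, a ratio of 0.65 (0.50 to 0.82).

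Scavenger and pattern recognition receptors were led by Marco, the only 1 of the 12 with enough UMIs that was over 2-fold higher. Over all genes that share was 1.7%, so a single gene is not read as a result about the list. Others were at smaller ratios. Msr1, the class A scavenger receptor, was at 2083 and 1460 CPM (1.43, 1.23 to 1.66), the LPS co-receptor Cd14 at 808 and 507 CPM (1.59, 1.24 to 2.04) and the complement receptor C3ar1 at 944 and 666 CPM (1.42, 1.13 to 1.77). Stab1, another scavenger receptor and the lowest of the list, was at 340 and 431 CPM with an interval that included 1.

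Among genes of iron handling and defence against oxidation, Fth1 had the highest ratio. Fth1, the heavy chain of the iron store ferritin, was at 7048 CPM in Saa3-high cells and 3524 CPM in Saa3-0 cells, a ratio of 2.00 (1.84 to 2.18). It was 1.65 (1.57 to 1.73) without thinning. It was the only 1 of 12 genes of the list that reached 2-fold, beside 1.7% of all genes, and the count is not read further. Cybb, a subunit of the phagocyte NADPH oxidase, was at 578 and 313 CPM (1.85, 1.36 to 2.49), and the mitochondrial superoxide dismutase Sod2 at 323 and 182 CPM (1.77, 1.17 to 2.64). Txnrd1 of the thioredoxin system was at 102 and 128 CPM. The summed list had a ratio of 1.61 (1.51 to 1.71), most of it from Fth1.

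Of 12 disease-associated microglia genes with enough UMIs, 2 were over 2-fold higher, beside 1.7% of all genes. Lyz2, a lysozyme that cuts bacterial cell walls, was at 1284 and 384 CPM (ratio 3.34, 2.66 to 4.20) and was seen in 57.1% of Saa3-high and 28.9% of Saa3-0 cells without thinning. Spp1, a secreted matrix protein, was at 196 and 94.8 CPM (2.06, 1.18 to 3.53), and under 2-fold without thinning (1.95, 1.40 to 2.70). Apoe, a lipid carrier, was at 969 and 538 CPM in the thinned cells, but at 726 and 634 CPM without thinning. Cd9 was the lowest at 187 and 306 CPM.

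**Figure D3:**
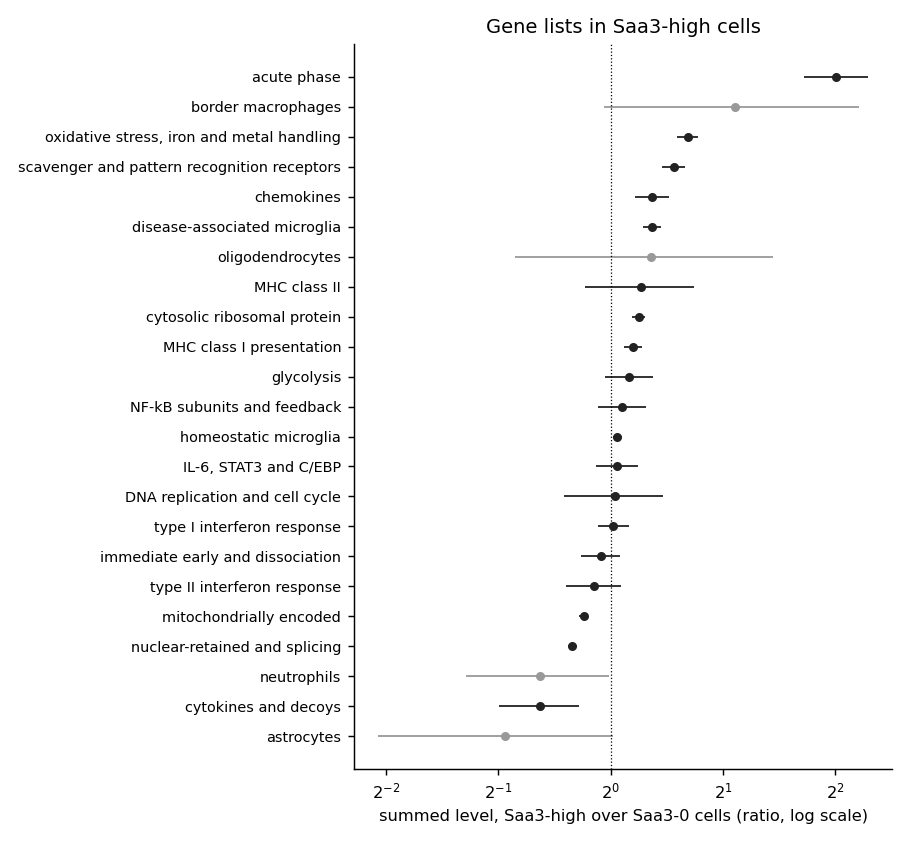
Summed level of each gene list in Saa3-high cells over that in Saa3-0 cells (ratio, log scale) with 95% exact intervals, Saa3 left out, for lists with at least 10 UMIs in both groups (black, states of microglia, grey, other cell types). The acute-phase list, which holds the markers Lcn2 and Hp, stands highest at 4.02, and most state lists lie between 0.65 and 1.61.

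Pathways known to act on acute-phase genes are given by their own transcripts. At 1.7% and 2.96% of all genes, counts of 0 are near the background in lists this small, so the summed ratios are given beside them. NF-κB subunits and feedback inhibitors had 0 of 6 genes past 2-fold, and their sum was at a ratio of 1.08 (0.92 to 1.25). Nfkbia, the inhibitor that NF-κB itself induces, was at 1173 and 1036 CPM. For IL-6, STAT3 and C/EBP genes 0 of 10 passed, with a ratio of 1.04 (0.91 to 1.18). Cebpb was at 655 and 512 CPM (1.28, 0.97 to 1.67) and Socs3, a feedback inhibitor of STAT3, at 136 and 137 CPM. The type I interferon list (0 of 14) had a ratio of 1.02 (0.92 to 1.12) and the type II interferon list (0 of 5) a ratio of 0.90 (0.76 to 1.07). Of MHC class I presentation 0 of 11 genes passed (1.15, 1.09 to 1.22), of MHC class II 0 of 3 (1.20, 0.86 to 1.67) and of glycolysis 0 of 8 (1.12, 0.96 to 1.30). Immediate early genes were at 0.94 (0.83 to 1.06, 0 of 12).

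Most defining transcripts of microglia were at like levels in both groups. Cx3cr1 stood at 3903 CPM in Saa3-high and 3919 CPM in Saa3-0 cells, C1qa at 5280 and 5282 CPM, Tmem119 at 502 and 519 CPM and Csf1r at 1250 and 1336 CPM. The intervals of these 4 ratios all included 1. In free RNA of the library C1qa was at 1944 CPM, Csf1r at 840 CPM and Tmem119 at 339 CPM, below both groups of cells, while Cx3cr1 was at 4278 CPM and P2ry12 at 571 CPM, not below them. P2ry12, a receptor for ADP on surveying microglia, was at 323 and 446 CPM (ratio 0.73, 0.50 to 1.03). The microglial transcription factor Sall1 was at 34.0 and 111 CPM from 4 and 47 UMIs (0.31, 0.08 to 0.84). Its UMIs were 0 and 19 in the female and 1 and 7 in the male. Without thinning the Sall1 levels were 85.4 and 118 CPM (0.73, 0.49 to 1.04). Over the homeostatic list, 0 of 25 genes were over 2-fold higher (1.7% of all genes) and 2 over 2-fold lower (2.96% of all genes), Sall1 and the UDP receptor gene P2ry6 (59.5 and 149 CPM), and the sum was at a ratio of 1.04 (1.01 to 1.07). KO LPS cells held P2ry12 at 3600 CPM, above both wildtype groups, with free RNA of that library at 4972 CPM.

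Transcripts of other cells that the sort could hold were scarce. Monocyte genes summed to 51.0 CPM in Saa3-high and 73.5 CPM in Saa3-0 cells, with 6 of 10 genes at 0 UMIs in Saa3-high cells, and Ly6c2 had 0 UMIs in all groups. Neutrophil genes, among which Lcn2 was not counted, summed to 221 and 341 CPM, and 5 of 10 were at 0 in Saa3-high cells. S100a8 was at 34.0 CPM in Saa3-high and 52.1 CPM in Saa3-0 cells and S100a9 at 8.50 and 42.7 CPM, with 82.5 and 114 CPM in free RNA. Without thinning the S100a8 levels were 47.0 and 43.6 CPM, but 7.08% of Saa3-high and 2.13% of Saa3-0 cells had a UMI, and 1 Saa3-0 cell held 24 of the 44 UMIs of its group. The border macrophage list was at 102 CPM against 47.4 CPM from 12 and 20 UMIs (ratio 2.15, 0.96 to 4.62), with Lyve1 and Pf4 at 0 in Saa3-high cells. Without thinning Mrc1 had 13 UMIs in Saa3-high and 6 in Saa3-0 cells, a ratio of 4.67 (1.66 to 14.99). Ms4a7 had 8 and 1, a ratio of 17.2 (2.31 to 765). Both intervals lay above 1. T or NK lymphocyte genes were at 0 UMIs in both. Leaving out all cells with at least 2 unthinned UMIs of these lists left 195 Saa3-high cells. In them the log2 ratio was 3.37 for Marco, 2.20 for Lcn2, 1.87 for Lyz2 and 1.82 for Cp, about as large as with all cells.

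Broad RNA classes also moved with the group. Nuclear-retained and splicing transcripts summed to 50224 CPM in Saa3-high and 63526 CPM in Saa3-0 cells (ratio 0.79, 0.77 to 0.81), with Malat1 at 36968 and 47566 CPM. Cytosolic ribosomal protein genes summed to 27437 and 23043 CPM (1.19, 1.14 to 1.24), and mitochondrially encoded genes to 46177 and 54550 CPM (0.85, 0.82 to 0.87). The part of these shifts, or of cell depth, in the ratios of single genes was not tested. When each Saa3-high cell was paired with the Saa3-0 cell nearest in total UMIs, the log2 ratio was 3.42 for Marco, 1.92 for Lcn2, 1.93 for Lyz2, 1.96 for Cp and 1.79 for Ccl3.

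The same genes were followed by the number of Saa3 UMIs per cell. There were 58 Saa3-high cells with 5 to 9 Saa3 UMIs, 75 with 10 to 19 and 107 with 20 or more, and the last had the highest median depth, 1724 UMIs. Marco was at 589, 864 and 2185 CPM in these 3 classes, Lyz2 at 589, 1160 and 1760 CPM, and Cp at 208, 405 and 948 CPM. The share of cells with a UMI went from 20.7% to 34.7% and 38.3% for Lyz2 and from 6.90% to 17.3% and 24.3% for Cp. For Marco it was 15.5%, 13.3% and 17.8%, so its level differed more than its share of cells, and 19 cells held the 113 Marco UMIs of the highest class. Lcn2 was at 485, 1187 and 1276 CPM, the last 2 with overlapping intervals. Others did not rise from class to class. Hp was at 208, 162 and 77.4 CPM from 6, 6 and 4 UMIs, Ccl5 at 520, 486 and 1141 CPM and Msr1 at 1837, 2456 and 1953 CPM. Ccl3 was at 104 CPM in the lowest class, near its Saa3-0 level of 116 CPM, and at 870 CPM in the highest, where 8 of the 107 cells held it. Cx3cr1 was at 3916, 3454 and 4216 CPM. The Malat1 level was 42871, 38188 and 32801 CPM.

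Just inside the threshold, the 30 cells with 5 or 6 Saa3 UMIs had Marco at 469 CPM, Lcn2 at 335 CPM and Lyz2 at 536 CPM. Just outside it, the 57 cells with 3 or 4 had 492, 422 and 176 CPM. Ccl5 was at 737 CPM inside and 352 CPM outside, Ccl4 at 335 and 0 CPM, Cp at 201 and 141 CPM and Ccl3 at 67.0 and 35.2 CPM. By value, Lyz2, Ccl5, Ccl4, Cp and Ccl3 were higher inside the threshold and Marco and Lcn2 lower. Each of these levels rests on 0 to 14 UMIs, and the intervals inside and outside overlapped for all 7 genes. Within the Saa3-high group, the cells with 20 or more carried 113 of 162 Marco UMIs, 91 of 151 Lyz2 UMIs and 66 of 124 Lcn2 UMIs.

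**Figure D4:**
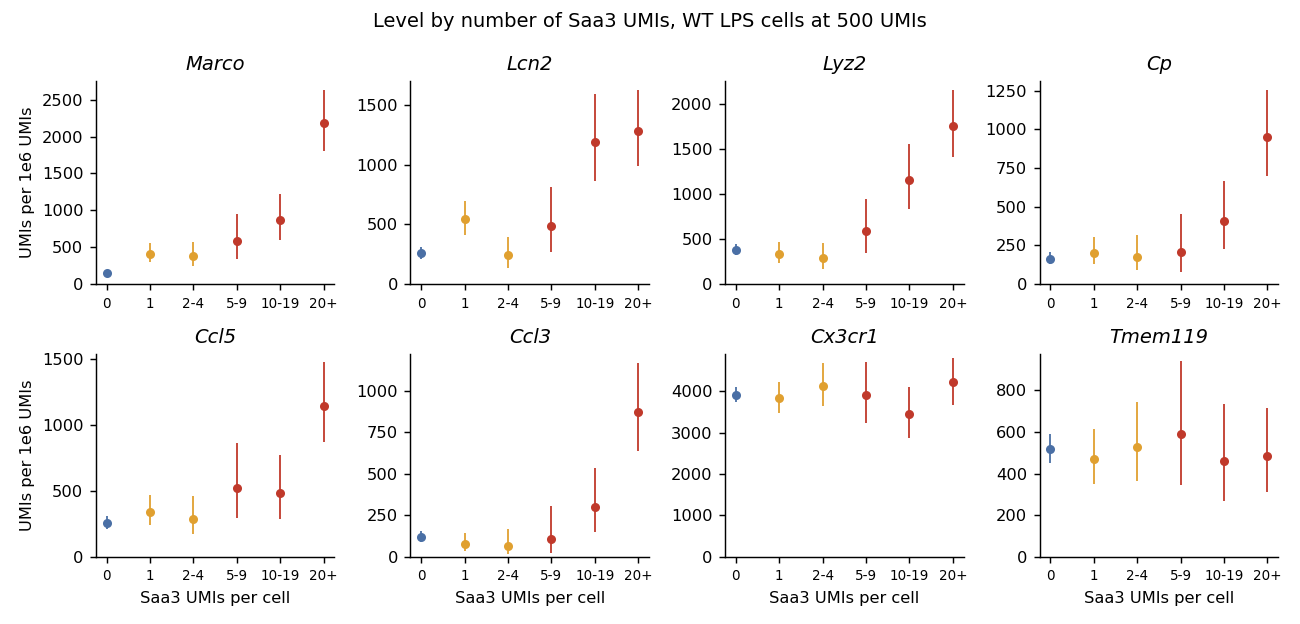
Level (UMIs per 1e6 UMIs, cells at 500 UMIs) against the number of Saa3 UMIs of the cell, in 6 classes from 0 to 20 or more, with 95% exact Poisson intervals, blue for 0, orange for 1 to 4 and red for Saa3-high cells. Marco, Lyz2, Cp and Ccl3 are highest at 20 or more Saa3 UMIs, and Cx3cr1 and Tmem119 are about level across the classes.

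Saa3-high cells were found among the cells assigned to each mouse of the wildtype library. The sexes allow cells to be assigned, by Xist UMIs without Y-linked UMIs to the female and the reverse to the male, so that mouse and sex cannot be told apart. Of 565 cells of the female, 112 were Saa3-high (19.8%, 16.6 to 23.4), and of 195 of the male 24 were (12.3%, 8.05 to 17.8). The intervals overlap. Among cells with at least 1000 UMIs the shares were 25.2% and 15.3%. Both kinds of UMIs were in 80 cells and neither in 587, and 25 (31.25%, 21.3 to 42.6) and 79 (13.5%, 10.8 to 16.5) of them were Saa3-high. The cells with both were deeper, with a median of 2199 UMIs against 1133 in the female and 1287 in the male. Whether they were doublets was not tested. With 80 cells holding both kinds of UMIs, the assignment is not clean, and wrongly assigned cells cannot be picked out. The paper split its own set of wildtype cells by Xist level and counted more male than female cells, the reverse of the order here. Values given for the female and the male are those of the assigned cells.

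Marco was at 1003 and 121 CPM in Saa3-high and Saa3-0 cells of the female and at 1694 and 69.6 CPM in those of the male. The log2 ratios in female and male were 3.03 and 4.47 for Marco, 1.98 and 1.63 for Lcn2, 2.28 and 1.85 for Cp, 2.07 and 3.17 for Ccl3, 1.48 and 1.48 for Ccl5 and 1.54 and 0.94 for Lyz2. These male ratios rest on few UMIs and are imprecise. In Saa3-high and Saa3-0 cells of the male there were 20 and 4 Marco UMIs, 3 and 5 of Lcn2, 8 and 11 of Cp, 17 and 9 of Ccl3, 13 and 23 of Ccl5 and 6 and 16 of Lyz2. Il1r2 had a log2 ratio of -1.02 in the female and 1.18 in the male, the latter from 3 and 7 UMIs. Hp had 4 and 6 UMIs in the female (72.9 and 38.2 CPM, log2 ratio 0.99) and 1 and 0 in the male, too few to be read. The male values rest on 24 Saa3-high cells, and the difference between the mice was not tested.

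**Figure D5:**
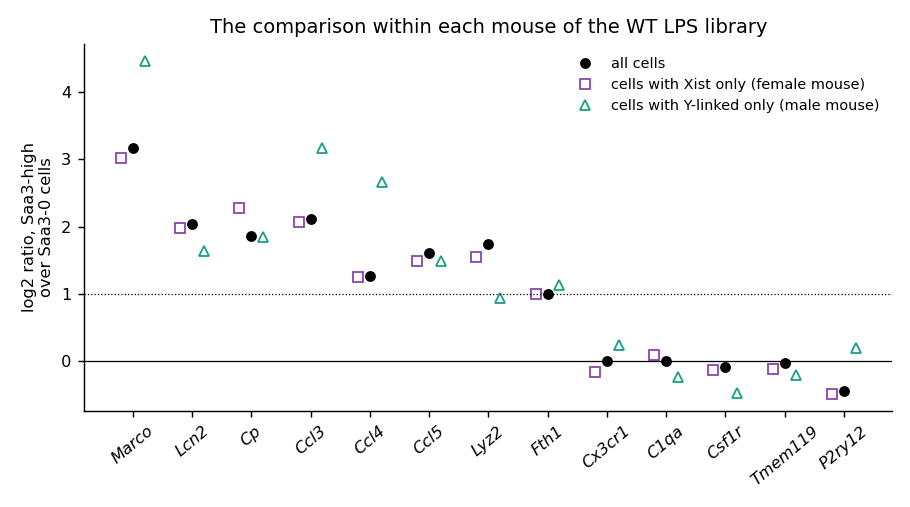
Log2 ratio of the level in Saa3-high over Saa3-0 cells (500 UMIs per cell, y axis) for 13 genes, in all cells (black), cells of the female mouse (squares) and cells of the male mouse (triangles), without intervals. The first 8 genes lie above 0 in both mice, and the 5 microglial markers shown, without Sall1, lie within about 0.5 of 0.

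Since KO LPS had no Saa3-high cell, the companion genes could only be given for all its 320 cells, at a median depth of 963.5 UMIs. Without thinning, Lcn2, Ccl5, Hp and Cxcl13 had 0 UMIs there, each with an upper bound of 9.67 CPM. Marco had 2 UMIs (5.24 CPM), Cp 3 (7.87 CPM) and Ccl3 10 (26.2 CPM). Lyz2 was at 168 CPM and Fth1 at 805 CPM. In Saa3-0 cells of WT LPS, Lcn2 was at 272 CPM, Lyz2 at 384 CPM and Fth1 at 3889 CPM, above KO LPS and above the free RNA of their own library (184, 212 and 1284 CPM). The Saa3-0 levels of Marco and Cp (172 and 162 CPM) were below their free RNA, at 225 and 241 CPM. That of Hp, 19.8 CPM, lay within the interval of its free RNA (6.98 to 41.4 CPM, from 6 UMIs). Mice, library and genotype cannot be told apart in these differences.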

How the data were processed

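Drop-seq UMIs of CD11b+CD45int brain cells were analysed for 1 WT LPS and 1 KO LPS library. The authors deposited raw UMI counts per gene and barcode, without normalisation, and missing values were read as 0. Both libraries held 9999 barcodes, which appears to be a fixed cut, and the barcodes used for free RNA are those within it. The submitters' processing notes name bcl2fastq 2.0, STAR and the builds mm9 and mm10, without their roles. The counting program, annotation and use of strand are not given in the sources used here, so counts of overlapping or near-identical genes are uncertain. Per-sample columns left unused numbered 0.

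Cells had at least 500 UMIs and 100 genes. Doublets were left in, and no cell was clustered. Cells were thinned without replacement to 500 UMIs, Saa3 was dropped, and UMIs were summed per group and divided by the total (CPM). Exact Poisson, binomial (Clopper-Pearson) and conditional binomial intervals (95%) were given for levels, shares and ratios. Log2 ratios used a prior count of 0.5. Genes needed 50 thinned UMIs over all wildtype cells, and called means at least 2-fold. With 1 library per genotype the study's MAST test was not run, since cells are not replicates. Python 3.11.15, numpy 2.4.6, scipy 1.17.1 and matplotlib 3.10.9 were used, and the scripts were tested on simulated data.

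The cells and the 30 gene lists, written from general knowledge, were chosen with earlier results of these data known. The naming rule covered the marker genes, Park7, 7 microglial markers, the 15 highest and 10 lowest log2 ratios, and, of each state list, its genes with the highest and the lowest ratio. Of these, genes with few UMIs are mostly not described singly, 1 of the 7 microglial markers is not reported here, and other genes were named after their values were seen. Gene lists for astrocytes, oligodendrocytes, endothelial cells, neurons, B lymphocytes, erythroid cells and choroid plexus had 1 to 10 UMIs in Saa3-high cells, and the DNA replication list was at a ratio of 1.03. Promoter sequences came from a RefSeq table of GRCm38.p6.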

Additional observations from a re-analysis of the deposited data

Results flagged for a closer look

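Saa3 was also present in WT LPS barcodes that were too shallow to be taken as cells. Of the 8572 barcodes under the thresholds, 25 held at least 5 Saa3 UMIs, against 0 of 9679 such barcodes of KO LPS. Together the shallow WT LPS barcodes held 1569 Saa3 UMIs, or 1460 per 1e6 UMIs, and those of KO LPS held 6, or 19.8 per 1e6. These barcodes enter no comparison above. What they contain was not tested.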

How the results depend on the processing

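The share of Saa3-high cells was 20.8% with at least 3 and 12.8% with at least 10 Saa3 UMIs, 22.3% in cells of 1000 UMIs or more, 19.8% in the female and 12.3% in the male. The counts of genes over 2-fold higher and lower (50 and 87) moved with the choice of cells and genes. The count of lower genes was 51 with at least 3 and 145 with at least 10 Saa3 UMIs and 37 at 1000 UMIs per cell. In cells of 1000 UMIs or more, 20 and 36 were higher and lower. A gene minimum of 20, 100 or 1 UMI gave 268 and 375, 13 and 15, or 2377 and 1146. The female alone gave 179 and 225, and the male 617 and 498. Alternatives chosen after seeing the data gave 353 and 365 (cells with at least 2 Xist UMIs) and 114 higher genes (reference cells paired by depth). These alternatives change the number of genes compared or the UMIs behind each gene.

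Marco, Lcn2, Ccl3, Cp, Lyz2, Ccl5 and Fth1 kept their direction under all 21 alternatives that were run for single genes. Their log2 ratios ranged from 2.62 to 4.47, 1.63 to 2.60, 1.51 to 3.17, 1.63 to 2.81, 0.94 to 2.55, 1.37 to 1.78 and 0.67 to 1.29. The male, with few UMIs, gave the upper end for Marco and Ccl3 and the lower end for Lcn2 and Lyz2. Hp, below the gene minimum, ranged from 0.99 in the female to 3.87 in the male. Of the 66 genes of the naming rule, 40 crossed a log2 ratio of 0 under at least 1 alternative, and 9 of these 40 were past 2-fold at first. The cause was not tested. These 9 were Apobr at 1000 UMIs (-0.21), Taf1 (-0.36) and Atf7ip (0.0075) in the second draw, Ndufaf7 with Saa3 removed first (0.025), Lats1 in cells with at least 2 Xist UMIs (-0.35), and Tmem14c (-0.38), Il1r2 (1.18), Uri1 (0.52) and Irak4 (0.70) in the male. All but Il1r2 were named for their place among the highest or lowest ratios and had 2 to 36 UMIs in Saa3-high cells. No paired analysis was possible because WT LPS and KO LPS have 1 library each and no result comes from a test over samples. Within WT LPS, Saa3-high and Saa3-0 cells could be set side by side among the cells assigned to each of the 2 mice, and the report gives those values. Depth limits the values of single cells and of genes with few UMIs.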
